A study of Gallus gallus with 12 samples.

Results

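Chicken miR-146b-5p, miR-146c-5p and miR-21-5p (gga-miR-146b-5p, gga-miR-146c-5p and gga-miR-21-5p in miRBase) are the inflammation-linked miRNAs described here, taken by name from the deposited table of breast muscle miRNAs. All 3 were found, among 38 miRNAs in the table. The birds were 6 pedigree male (PeM) broilers, a line selected for growth and feed efficiency, and 6 unselected Barred Plymouth Rock (BPR) chickens. All 12 were labelled as 8 weeks old, an age that the methods give as an upper limit, and each was sequenced as its own small RNA library. The PeM birds were supplied by a breeding company and the BPR birds by a university flock, so breed and origin cannot be told apart. The comparison asked which miRNAs differ between a fast growing and a slow growing breast muscle.

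A miRNA guides the Argonaute complex to messenger RNAs that pair with its seed, the bases 2 to 8, and lowers their stability or translation. In mammals, the transcription factor NF-κB switches on miR-146 genes, and miR-146 in turn represses TRAF6 and IRAK1, proteins of Toll-like and interleukin-1 receptor signalling, so that it acts as a brake on inflammation. The miR-146 members have the same seed and nearly the same sequence, and their predicted target sets overlap. MiR-21 has a different seed. In mammals it rises in injured and fibrotic tissue and represses PDCD4, a protein that restrains translation and promotes cell death.

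The 3 names matched the RefSeq genes MIR146B, MIR146C-1 and MIR21 of assembly GRCg7b. By the ranges annotated there, MIR146B overlaps the protein-coding gene LOC121113369, MIR146C-1 overlaps DDRGK1, and MIR21 overlaps RPS6KB1 next to VMP1. The labels name another build, galGal5, so no coordinates are given. MIR146A, the remaining member of the family in that gene table, was not analysed here.

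Values are normalised read counts (RPM), in which the authors scaled the reads of each bird to the same total. All 36 RPM values of the 3 miRNAs were whole multiples of the value of 1 read in that bird, within 0.005 reads, so the reads behind them were inferred from these steps. The inferred totals ran from 4784 to 12454 reads per BPR bird and from 3021 to 9120 per PeM bird, so that 1 read was worth 80.3 to 331 RPM. PeM bird 16 stood apart with 9120 reads, while no other PeM bird exceeded 4858. The totals are far below the clean reads that the study obtained, for a reason that could not be checked here, and every count of reads and counting interval rests on them. Results that rest on PeM bird 16 are given with and without it, where a fit without it was run. The skeletal muscle miRNAs miR-1a-3p, miR-133a-5p, miR-133c-3p and miR-206, 4 of the 7 on a muscle list, summed to 349350 to 424683 RPM in BPR and 301225 to 422924 RPM in PeM, as the tissue label states. All 4 white blood cell miRNAs on a further list (miR-223, miR-142-3p, miR-142-5p and miR-155) were not analysed here.

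The 3 miRNAs spanned the middle and the end of the abundance range. MiR-146c-5p ranked 11 of 38 by mean RPM over the 12 birds, with 14588 RPM or 1.46% of the reads. It lay between miR-30d at 15828 RPM and miR-222a at 11123 RPM, and its order with both changed from bird to bird: it was above miR-30d in 4 of 12 birds and above miR-222a in 9 of 12. MiR-21-5p ranked 27 with 3650 RPM, and it was above each of its neighbours, miR-451 at 3883 RPM and miR-20a-5p at 3462 RPM, in 6 of 12 birds. MiR-146b-5p was the last of the 38, with 1304 RPM, just under miR-128-3p at 1371 RPM, which it exceeded in 4 of 12 birds. None of these neighbours therefore stood apart from the miRNA beside it in every bird.

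MiR-146b-5p was higher in PeM. In BPR birds 1, 2, 3, 4, 6 and 7 it was at 627, 524, 723, 743, 1111 and 554 RPM. In PeM birds 1, 4, 5, 8, 10 and 16 it was at 1617, 1706, 662, 2538, 1441 and 3399 RPM. Of the 6 PeM birds, 5 were above every BPR bird, and PeM bird 5 lay inside the BPR range. BPR averaged 714 ± 213 RPM and PeM 1894 ± 950 RPM (mean ± SD, n = 6 per breed). The log2 fold change was 1.28 with a standard error of 0.33, a 2.44-fold rise (95% interval 1.5 to 3.97-fold). Limma, a linear model on log2(RPM) that shares the variance over all 38 miRNAs, gave an unadjusted p of 0.00156 and a Benjamini-Hochberg adjusted p of 0.0198. Reassigning the birds to the breeds in every possible way (exact permutation test, two-sided) gave p = 0.00866, where the smallest possible is 0.00216.

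**Figure D1:**
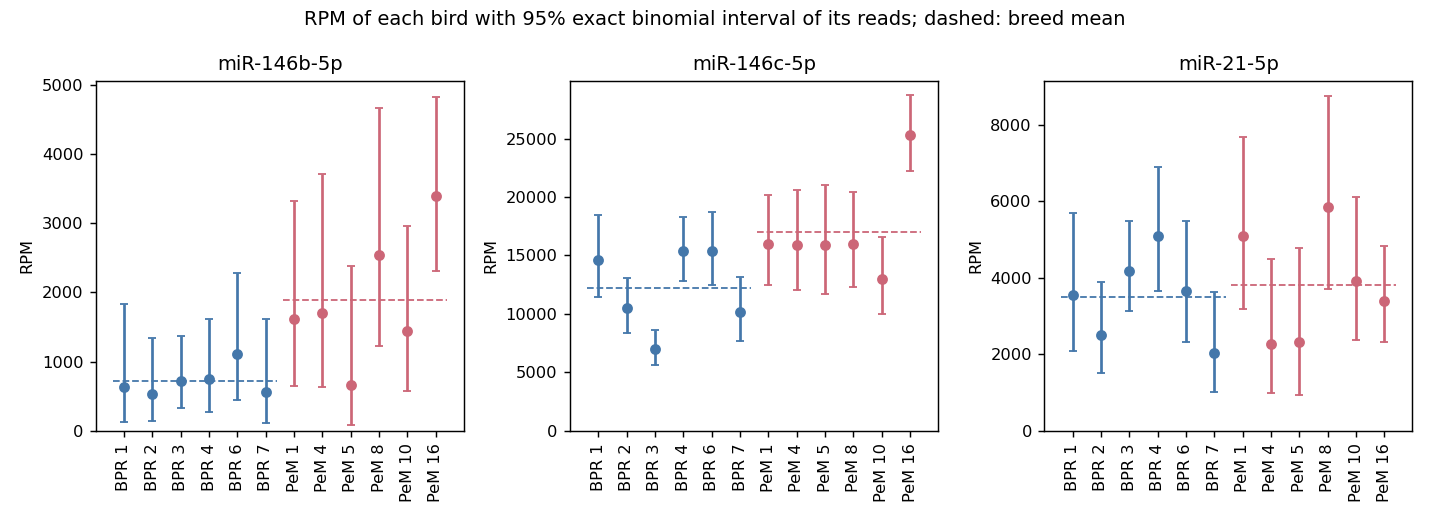
RPM of miR-146b-5p, miR-146c-5p and miR-21-5p in each of the 6 BPR birds (blue) and 6 PeM birds (red); points are single birds, bars the 95% exact binomial interval from the reads of that bird, dashed lines breed means. MiR-146b-5p lies above all BPR birds in 5 PeM birds, miR-146c-5p is highest in PeM bird 16 at 25329 RPM, and the miR-21-5p values of the breeds overlap.

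These miR-146b-5p values rest on few reads, between 3 and 9 in each BPR bird and 2, 6, 7, 7, 10 and 31 in the PeM birds. PeM bird 5, with 2 reads, was under a floor of 3 reads, which BPR birds 1 and 7 just met. The 2 reads of PeM bird 5 allow 80.2 to 2389 RPM, and the 31 reads of PeM bird 16 allow 2311 to 4821 RPM (95% exact binomial intervals, counting error only). Among BPR birds the coefficient of variation (SD over mean) was 29.9%, where counting error alone would give 45.5%. Among PeM birds it was 50.2%, against 35.3% from counting. The BPR birds thus varied no more than their reads allow, and the limma error for this miRNA can be too small.

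PeM bird 16 was the highest bird for miR-146b-5p. Without it, the PeM mean was 1593 ± 670 RPM (n = 5), and the log2 fold change was 1.08, still past the thresholds of the study (limma, unadjusted p = 0.00323, adjusted p = 0.0394). Leaving out PeM bird 5, the lowest, raised it to 1.55. Without PeM bird 8 it was 1.17 and the limma adjusted p was 0.051. In all 12 fits that each left out 1 bird the unadjusted call was kept.

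MiR-146c-5p, the abundant member of the family, was also higher in PeM, by a smaller factor. In BPR birds 1, 2, 3, 4, 6 and 7 it was at 14632, 10489, 6986, 15356, 15397 and 10148 RPM. In PeM birds 1, 4, 5, 8, 10 and 16 it was at 15943, 15927, 15889, 15990, 12968 and 25329 RPM. Of the BPR birds, 3 lay between 14632 and 15397 RPM and 3 were lower, whereas 4 PeM birds lay between 15889 and 15990 RPM, just above the highest BPR bird. PeM bird 16 was far above and PeM bird 10 inside the BPR range. BPR averaged 12168 ± 3476 RPM and PeM 17008 ± 4246 RPM (mean ± SD, n = 6 per breed).

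The log2 fold change of miR-146c-5p was 0.51 with a standard error of 0.22, a 1.42-fold rise (95% interval 1.02 to 1.97-fold). It was called by the rule of the study (fold change over 1.2 and p under 0.05 before adjustment), with p = 0.0375 in limma and 0.0476 in the exact permutation test. The limma adjusted p was 0.178. The values rest on 48 to 231 reads per bird, so that counting error would give a coefficient of variation of 11% in BPR and 11.8% in PeM, against 28.6% and 25% between birds. Without PeM bird 16, the PeM mean was 15343 ± 1328 RPM (n = 5). The coefficient of variation was then 8.66%, under the 13% of counting error, and the log2 fold change was 0.39 (limma, unadjusted p = 0.0916). The call was also lost without BPR bird 2 (log2 fold change 0.48), BPR bird 3 (0.36), BPR bird 7 (0.47), PeM bird 1 (0.52) or PeM bird 8 (0.52). The fold change of 1.42 is below a stricter threshold of 1.5. Median centring of the birds also ended the call (0.46, limma unadjusted p = 0.088). Limma-voom on the recovered reads, which weights the deeper birds more, gave 0.64 and an adjusted p of 0.0346. In no other fit was the adjusted p of miR-146c-5p under 0.05. The deepest bird of each breed was also an extreme for this miRNA, BPR bird 3 the lowest and PeM bird 16 the highest. Limma-voom was not run without PeM bird 16.

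MiR-21-5p showed no detectable breed difference. In BPR birds 1, 2, 3, 4, 6 and 7 it was at 3554, 2491, 4175, 5077, 3651 and 2030 RPM. In PeM birds 1, 4, 5, 8, 10 and 16 it was at 5083, 2275, 2317, 5838, 3911 and 3399 RPM. The ranges of the breeds overlapped nearly whole, and birds with low and high values occurred in each. BPR averaged 3496 ± 1109 RPM and PeM 3804 ± 1449 RPM (mean ± SD, n = 6 per breed). The log2 fold change was 0.10 with a standard error of 0.28 (limma, adjusted p = 0.9; exact permutation test, p = 0.751). Its 95% interval ran from 0.705-fold to 1.62-fold, so these birds can neither show nor exclude a change of that size. The values rest on 7 to 52 reads per bird, and the coefficient of variation, 31.7% in BPR and 38.1% in PeM, was above the 20.6% and 24.9% of counting error. Without PeM bird 16 the log2 fold change was 0.11. It was -0.05 without BPR bird 7 and 0.23 without PeM bird 4, the extremes of the fits that left out 1 bird, and also below 0 without PeM bird 1 or PeM bird 8.

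**Figure D2:**
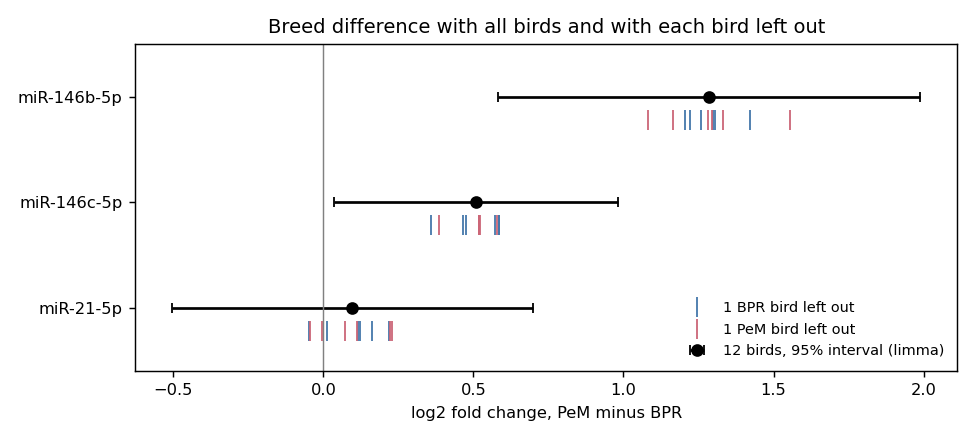
Log2 fold change of PeM over BPR for each miRNA, with the 95% limma interval from all 12 birds (black) and the value with each BPR bird (blue ticks) or PeM bird (red ticks) left out. MiR-146b-5p stays between 1.08 and 1.55, miR-146c-5p between 0.36 and 0.59, and miR-21-5p between -0.05 and 0.23.

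Thus 2 of the 3 miRNAs passed the thresholds of the study, both higher in PeM, where 18.4% of the 38 miRNAs were called higher in PeM and 21.1% were called in either direction. After Benjamini-Hochberg adjustment of the limma p-values, 1 of the 3 passed, where 13.2% of the 38 did. None of the 3 separated the breeds without overlap, which 2.63% of the 38 did. With 3 miRNAs, these counts cannot be set apart from the share over the whole table. In whole muscle, more cells of a type and more RNA per cell cannot be told apart.

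Whether the miR-146 members and miR-21-5p differed unequally between the breeds was tested on their ratio within each bird, which does not depend on the scaling of that bird. The log2 ratio of miR-146b-5p to miR-21-5p was higher in PeM by 1.19 (standard error 0.34, exact permutation test, p = 0.00433, adjusted over 3 ratios p = 0.013), and 5 of the 6 PeM birds exceeded all BPR birds. It was 0.97 without PeM bird 16 (exact p = 0.00866). For miR-146c-5p over miR-21-5p the PeM log2 ratio was above that of BPR by 0.41 (standard error 0.36), which the exact permutation test did not separate from 0 (p = 0.279, the same after adjustment). The ratios to miR-21-5p were added after seeing the data, and the adjustment over 3 ratios does not cover that choice.

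The miR-146 family sum, miR-146b-5p plus miR-146c-5p, followed its abundant member. It was at 15259, 11014, 7708, 16099, 16508 and 10701 RPM in BPR birds 1, 2, 3, 4, 6 and 7. In PeM birds 1, 4, 5, 8, 10 and 16 it was at 17560, 17634, 16551, 18528, 14409 and 28728 RPM. All PeM birds except bird 10 were above all BPR birds, PeM bird 5 by a narrow margin over BPR bird 6. BPR averaged 12882 ± 3582 RPM and PeM 18902 ± 5016 RPM (mean ± SD, n = 6 per breed), a difference of 0.57 on the log2 scale, or 0.44 without PeM bird 16. Of the 6020 RPM between the means, 4840 came from miR-146c-5p and 1180, or 19.6%, from miR-146b-5p. The family held 1.59% of the reads on average. It exceeded miR-21-5p in every bird, by 1.85 to 5.27 times in BPR and 3.17 to 8.45 times in PeM.

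The balance within the family was tilted toward miR-146c-5p in all 12 birds. MiR-146c-5p was 9.67 to 23.3 times as abundant as miR-146b-5p in BPR birds, with a median of 19.2, and 6.3 to 24 times in PeM birds, with a median of 9.17. MiR-146b-5p made up 4.11%, 4.76%, 9.38%, 4.62%, 6.73% and 5.17% of the family reads in BPR birds 1, 2, 3, 4, 6 and 7. In PeM birds 1, 4, 5, 8, 10 and 16 it made up 9.21%, 9.68%, 4%, 13.7%, 10% and 11.8%. PeM bird 5 had the lowest share of all birds and BPR bird 3 a share like that of the PeM birds, so the shares of the breeds overlapped. The other birds fell apart by breed, but only with the overlapping birds set aside, so that split is no test.

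The mean share of miR-146b-5p was 5.79% ± 1.97 in BPR and 9.74% ± 3.27 in PeM (mean ± SD, n = 6 per breed). With the reads of a breed added up, it was 32 of 545 family reads in BPR (5.87%, exact 95% interval 4.05 to 8.19%) and 63 of 593 in PeM (10.6%, 8.26 to 13.4%), intervals that cover counting error only. Without PeM bird 16, which supplied 31 of the 63 reads, it was 32 of 331 in PeM (9.67%, 6.71 to 13.4%), an interval that overlaps that of BPR. Between the members themselves, the log2 ratio of miR-146b-5p to miR-146c-5p averaged -4.08 in BPR and -3.30 in PeM, a difference of 0.78 (standard error 0.33). The exact permutation test gave p = 0.0519 (0.0779 adjusted over the 3 ratios), so the test did not pass. The unadjusted p was under 0.05 only when PeM bird 5 (1.03, exact p = 0.00649) or BPR bird 3 (0.94, exact p = 0.0216) was removed. These are the birds whose shares made the breeds overlap. Removing either favours a difference, so neither p-value can show one. Removing any other single bird gave an unadjusted exact p from 0.0541 to 0.0974, with 0.0931 for PeM bird 16 (difference 0.70). How many mismatches the aligner allowed is not given in the sources used here, so reads could have been exchanged between the near-identical miR-146 members, and the split between them is less certain than their sum.

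**Figure D3:**
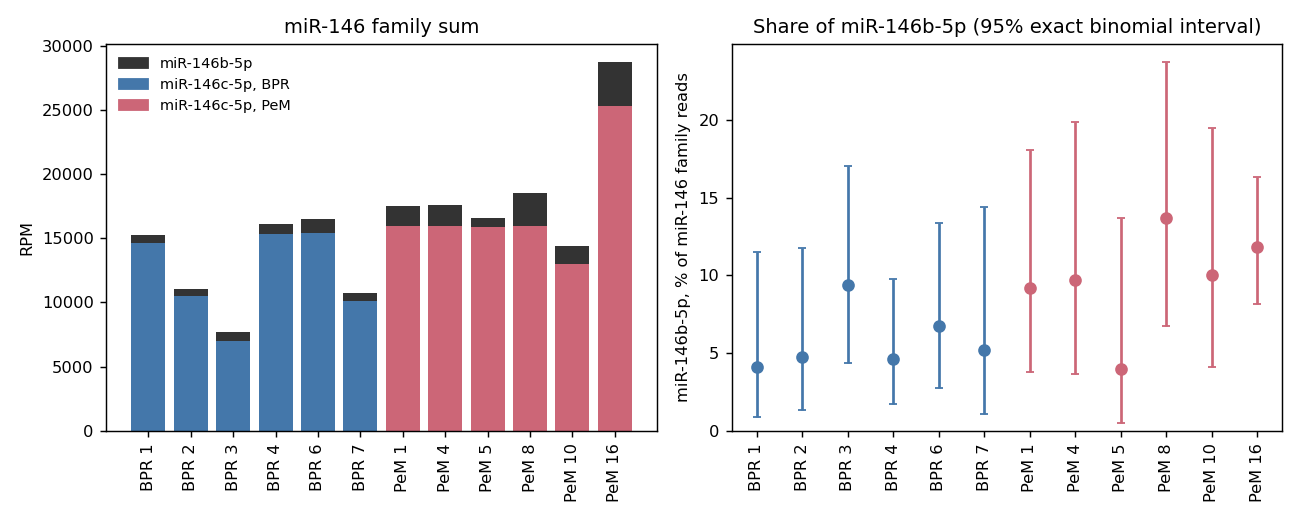
Left, summed RPM of miR-146c-5p (blue in BPR, red in PeM) and miR-146b-5p (black) in each bird; right, miR-146b-5p as a percent of the family reads with its 95% exact binomial interval. The sum reaches 28728 RPM in PeM bird 16, and the share lies between 4% and 13.7% with wide, overlapping intervals.

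By their RPM values the 3 miRNAs did not all rise in the same birds, but the reads do not resolve whether they did. Against the median of its own breed, all 3 were above in BPR birds 4 and 6 and in PeM bird 8, and all 3 were below in BPR birds 2 and 7 and in PeM bird 5. In PeM birds 5 and 8 miR-146c-5p was within 1 read of the median, as was miR-146b-5p in BPR birds 4 and 7. MiR-21-5p was within 1 read of it in BPR bird 6. The place of each of these birds in this tally thus rests on its other 2 miRNAs. Among the birds of the tally, only BPR bird 2 was more than 1 read away for all 3. Even there, the 95% counting intervals of miR-146b-5p (142.91 to 1342.3 RPM) and miR-21-5p (1500.5 to 3887.5 RPM) covered the BPR medians of 675 and 3602 RPM. The 6 birds outside the tally were mixed. Of these, PeM birds 1 and 4 were within 1 read of the median for miR-146b-5p and miR-146c-5p. BPR bird 1 was so for miR-146b-5p and miR-21-5p, and BPR bird 3 for miR-146b-5p. That these birds were mixed is thus not resolved by their reads. PeM bird 16 was the highest PeM bird for miR-146b-5p and miR-146c-5p, 1.03 and 0.67 above the median on the log2 scale, while its miR-21-5p was 0.10 below. In BPR bird 3, miR-146c-5p was the lowest of the breed at 0.83 below the median, while miR-21-5p was 0.21 above. The 95% counting intervals of miR-21-5p in these birds, 2311 to 4821 RPM in PeM bird 16 and 3120 to 5472 RPM in BPR bird 3, covered the breed medians of 3655 and 3602 RPM. PeM bird 5 had a miR-146c-5p level at the median, with miR-146b-5p 1.33 and miR-21-5p 0.65 below it.

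**Figure D4:**
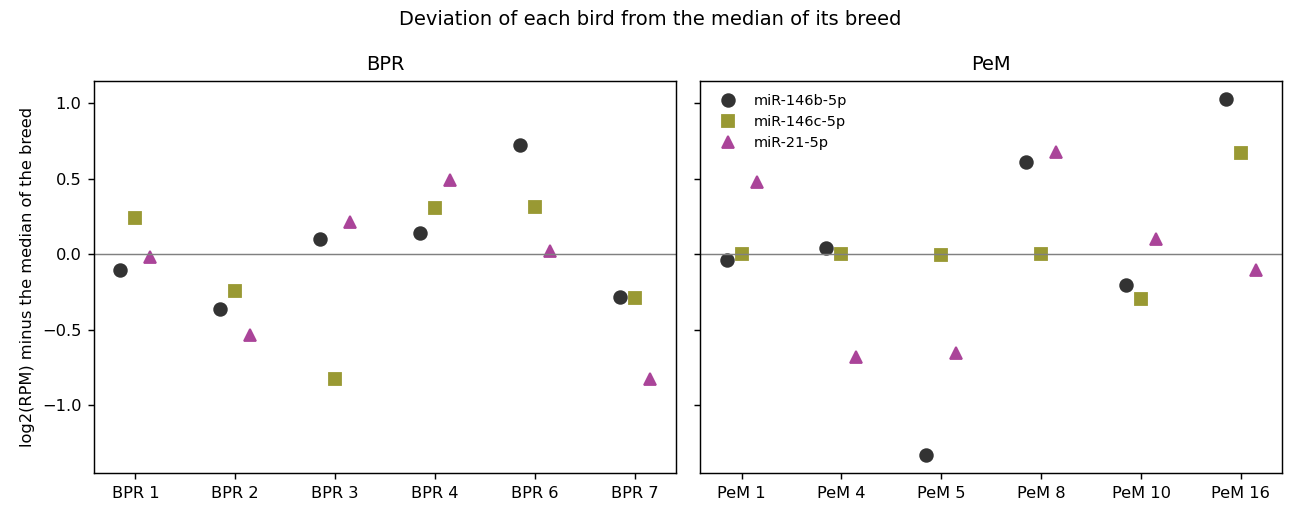
Log2(RPM) of miR-146b-5p (circles), miR-146c-5p (squares) and miR-21-5p (triangles) in each bird minus the median of its breed, BPR left and PeM right. In PeM bird 16 the circle and the square lie 1.03 and 0.67 above the line and the triangle 0.10 below it.

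Correlations of log2(RPM) were computed within each breed, for 3 pairs of miRNAs in 2 breeds. Pearson's r of miR-146b-5p with miR-146c-5p was 0.39 in BPR (exact permutation p = 0.435; rho = 0.60, p = 0.242) and 0.58 in PeM (exact p = 0.236; rho = 0.89, p = 0.0333). The p-values of rho were not adjusted. Apart from the highest and the lowest, the PeM birds ran only from 15889 to 15990 RPM in miR-146c-5p. Each read of these birds was worth 231 to 331 RPM. The reads thus do not resolve their order, on which the PeM rho of 0.89 partly rests. Without the 2 birds farthest from the median of miR-146b-5p, r of the miR-146 members was -0.01 in BPR and 0.59 in PeM. For miR-146b-5p with miR-21-5p, r was 0.58 in BPR (exact p = 0.222; rho = 0.77, p = 0.103) and 0.49 in PeM (exact p = 0.343; rho = 0.20, p = 0.714), and 0.96 and 0.46 without 2 birds chosen the same way. In BPR, only birds 1, 3, 4 and 7 were then left, with 3, 9, 6 and 3 reads of miR-146b-5p (554 to 743 RPM). Each read of theirs was worth 80.3 to 209 RPM. Their order in miR-146b-5p is not resolved by the reads, so the 0.96 cannot show whether the 2 miRNAs rose together. For miR-146c-5p with miR-21-5p, r was 0.26 in BPR (exact p = 0.604; rho = 0.31, p = 0.564) and -0.09 in PeM (exact p = 0.965; rho = 0.31, p = 0.564). Without the 2 birds farthest from the median of miR-146c-5p, those were 0.95 and 0.85. In PeM these 2 were the highest and the lowest bird, so only birds from 15889 to 15990 RPM were left. Their order in miR-146c-5p is not resolved by the reads, so the 0.85 cannot show whether the 2 miRNAs rose together. None of the 6 values of r passed, with adjusted p from 0.652 to 0.965. For the miR-146 members in PeM, r was 0.04 without PeM bird 16. Without PeM bird 5 it was 0.88 (exact p = 0.0167). In BPR, r of miR-146c-5p with miR-21-5p was 0.92 without bird 3 (exact p = 0.0167). Both p-values are unadjusted, and each was the only one under 0.05 among the 6 fits of its pair and breed that left out 1 bird. The other pairs and breeds had none.

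Among the 37 other miRNAs, those whose pattern was most like each of the 3 were found by Spearman's rho of log2(RPM) over the 12 birds, each breed centred on its own mean. These values are a description, since all miRNAs of a bird share its library and total. For miR-146b-5p they were let-7g-5p (0.741), miR-146c-5p (0.664) and miR-21-5p (0.497), where the median over the 37 was -0.03. For miR-146c-5p they were miR-146b-5p (0.664), let-7g-5p (0.643) and miR-451 (0.538), with a median of 0.11. For miR-21-5p they were let-7g-5p (0.727), miR-451 (0.657) and let-7f-5p (0.615), with a median of 0.06. Let-7g-5p was thus among the leading 3 for each of them. Its own breed difference was 0.07 on the log2 scale (limma adjusted p = 0.908). In 4 birds its value was not a whole number of reads, for a reason that was not tested, so its level is less certain there.

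Red blood cell, endothelial and other inflammation-linked miRNAs were compared with the 3 as lists. MiR-451 and miR-16-5p, 2 of the 3 red blood cell miRNAs listed, summed to 5701 to 18947 RPM in BPR and 5702 to 9954 RPM in PeM. BPR bird 4 had 18947 RPM, against at most 8571 RPM in the other BPR birds, and it was also the BPR bird with the highest miR-21-5p. PeM bird 16 had the lowest sum of the PeM birds, at 5702 RPM. Without BPR bird 4, rho of miR-451 with miR-21-5p was 0.509 and with miR-146c-5p 0.391, and the log2 fold change of miR-21-5p was 0.22. MiR-16-5p went the other way over the 12 birds, with rho of -0.343 for miR-21-5p, -0.245 for miR-146c-5p and -0.406 for miR-146b-5p. These were -0.327, -0.236 and -0.364 without BPR bird 4. The log2 fold changes of miR-451 and miR-16-5p were -0.34 and 0.32, neither of them called. The part of blood in these levels was not tested further.

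Endothelial miR-126-3p, which guards vessel integrity and was 1 of the 2 endothelial miRNAs listed, was at 33001 to 70317 RPM in BPR and 68782 to 77127 RPM in PeM. It passed the thresholds of the study in the same direction as the miR-146 members, with a log2 fold change of 0.57 (limma adjusted p = 0.0283). Its level was 69846 RPM in PeM bird 16, the fifth of the PeM birds. The paper reports that qPCR did not match the sequencing for this endothelial miRNA, and proposes data normalization as a possible reason. For both family members described here, the paper reports good agreement between qPCR and sequencing. The qPCR fold changes it lists for them have the same direction but are smaller than those from sequencing. Over the 12 birds, rho of miR-126-3p was -0.021 with miR-146b-5p, 0.469 with miR-146c-5p and -0.147 with miR-21-5p. Whether a larger share of vessel cells accompanies the miR-146 levels was not tested. Of 9 other miRNAs with a known part in inflammation, 5 could be compared: miR-125b-5p, miR-126-3p, miR-181a-5p, miR-17-5p and miR-20a-5p. Of these 5, miR-125b-5p and miR-126-3p were called higher in PeM and 0 were called lower, where 18.4% of the 38 miRNAs were called higher. The median log2 fold change of the 5 was 0.06, against 0.07 over all 38 miRNAs.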

How the data were processed

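The authors trimmed adapters with bbduk, used ArrayStar to align reads to the miRBase set of mature chicken miRNAs, dropped miRNAs with a mean under 5 reads in each breed and deposited RPM, 1 column per bird. Per the labels, FastQC and galGal5 were also used. The deposited table also holds the authors' mean RPM, log2 mean, log2 fold change and p-value, none of which was used.

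The reads of a bird were taken from the smallest total between 1000 and 20000 that made most values whole within 0.005: 443 of 456 values (97.1%) were whole. A floor of 3 reads equals 240.9 to 993 RPM. Without molecular identifiers, PCR copies count as separate reads, so intervals cover counting error only.

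The breeds were compared on log2(RPM) without a pseudocount with limma 3.58.1 in R 4.3.3, breed as the only factor, in place of the t-statistic of the study, and p-values were adjusted over all 38 miRNAs. Permutation tests were exact and two-sided. Python 3.11.15, scipy 1.17.1 and matplotlib 3.10.9 were used. The miRNAs and lists were chosen with earlier results of these data known. The named miRNAs are the 3 described, the 3 most like each, their neighbours by abundance and the lists. The ratios to miR-21-5p, limma-voom and the fit of 4 birds without block were added after seeing the data. Alternatives were pseudocounts of 1 and 100, median centring, limma-trend, rescaling without the 2 most abundant miRNAs, a filter at 2000 RPM, the exact test, a fold change over 1.5, the bird number as a block and leaving out each bird. Mature sequences were not used here.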

Additional observations from a re-analysis of the deposited data

Results flagged for a closer look

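In each breed, the 6 birds were examined by Dixon's test for a bird far from the others, for the RPM of the 3 miRNAs, the miR-146 family sum, the share of miR-146b-5p in it and the total reads. Of these 12 groups, 4 held such a bird. By chance about 1 in 20 groups would, or 0.6, if the values were normally distributed. The test was run on RPM and reads without a log, so the 0.6 is only a rough guide. The groups are not independent, since the family sum contains miR-146c-5p.

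PeM bird 16 accounted for 3 of the 4. Its miR-146c-5p was at 25329 RPM, with a gap to the nearest PeM bird of 0.756 of the range. Its miR-146 family sum was at 28728 RPM, with a gap of 0.712. Its total was 9120 reads, with a gap of 0.699. The other was the miR-146b-5p value of BPR bird 6, 1111 RPM from 7 reads, whose gap was 0.627 of the range. The 95% exact binomial interval of those reads runs from 446.8 to 2288 RPM and covers the values of all other BPR birds.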

How the results depend on the processing

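MiR-146b-5p kept its direction and its call under every alternative that could test it, with log2 fold changes from 1.08 to 1.55 without 1 bird. The filter at 2000 RPM removed it. MiR-146c-5p ran from 0.358 to 0.586 without 1 bird, and the call was lost in 6 of those 12 fits. It was also lost with median centring, at 0.461. MiR-21-5p ran from -0.047 to 0.227 without 1 bird. Bird numbers 1 and 4 occur in both breeds but belong to different animals, and the deviations of the same-numbered birds correlated at 0.03 and -0.17. With the bird number as a replicate block, on those 4 birds, the log2 fold change was 1.28 for miR-146b-5p, 0.0882 for miR-146c-5p (no longer called) and -0.321 for miR-21-5p (reversed). The same 4 birds without the replicate block gave the same 0.0882 and -0.321, so these changes come from the smaller set of birds.

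The number of miRNAs called among the 38 was 8 (7 higher and 1 lower in PeM), and it was 5 with a fold change over 1.5, which also ends the call of miR-146c-5p, 6 with median centring (6 higher and 0 lower), 6 with the filter at 2000 RPM, 11 with the replicate block and 7 to 10 without 1 bird. The miR-146 family sum ran from 0.431 to 0.651 and the log2 ratio of its members from 0.648 to 1.03 without 1 bird. Median centring moved 3 values of r across 0 or the unadjusted threshold: the miR-146 members to -0.0785 in BPR (reversed) and to 0.825 in PeM (exact p = 0.0347, not adjusted), and miR-146c-5p with miR-21-5p to 0.416 in PeM (reversed). The 0.825 was not computed without PeM bird 16, without which the uncentred r was 0.0396. Median centring also raised r of miR-146b-5p with miR-21-5p in PeM from 0.49 to 0.745 (exact p = 0.0778) and lowered that of miR-146c-5p with miR-21-5p in BPR from 0.263 to 0.167. The cause was not tested. Without 1 bird, r of the miR-146 members ran from 0.054 to 0.766 in BPR and from 0.0396 to 0.877 in PeM, and that of miR-146b-5p with miR-21-5p from 0.467 to 0.934 in BPR and from 0.0977 to 0.673 in PeM. That of miR-146c-5p with miR-21-5p ran from 0.00952 to 0.922 in BPR and from -0.173 to -0.0315 in PeM. Count models (edgeR and DESeq2) on the recovered reads were not run. Limma-voom uses the same inferred reads and carries the same doubt. Depth limits miR-146b-5p most, with 2 to 31 reads per bird.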
